A study of Mus musculus with 3 samples.

Results

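The 33 genes described here encode the receptors for extracellular nucleotides and adenosine and the enzymes that break these molecules down or remove them. They were chosen by gene symbol from the 52550 genes of the deposited table: 7 P2X receptors, 8 P2Y receptors, 4 adenosine receptors, 8 genes of the Entpd family, Nt5e, 3 genes of the Enpp family, Ada and Adk. RNA was measured in LepR+ cells sorted from superior cervical ganglia, the sympathetic ganglia of the upper neck, of male mice aged 10 weeks. The genotype was LepRCRE::Ai32, in which Cre recombinase is driven from the leptin receptor gene and Ai32 is a Cre-dependent allele for a channelrhodopsin fused to yellow fluorescent protein. Such a reporter marks every cell in which Cre has acted, at any earlier stage too, and the protocol label names the mice differently, as a LepR reporter line with yellow fluorescent protein. The design had 1 group of 3 biological replicates, with no second group, so levels were compared with a fixed level of 1 TPM (a level per gene length, scaled to the same total in each library) and with the other genes of the table.

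Cells release ATP through channels, vesicles and damage. ATP opens P2X receptors, which are cation channels, and ATP, ADP and uracil nucleotides act on P2Y receptors, which couple to G proteins. Enzymes on the cell surface cut ATP to ADP, AMP and then adenosine, which has receptors of its own and is cleared through nucleoside carriers, adenosine kinase and adenosine deaminase. Sympathetic neurons release ATP with noradrenaline, and satellite glia, which wrap the neuron cell bodies, are known to carry both P2 receptors and nucleotidases.

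Replicates 1, 2 and 3 held at least 8239037, 8038609 and 7721986 reads on genes, recovered from the deposited values. In these libraries 1 read on a gene of 1 kb was worth 0.391, 0.391 and 0.418 TPM. Lepr (chromosome 4, 101717404 to 101815352) stood at 363, 32.1 and 54.0 TPM in replicates 1, 2 and 3. By the title of the series these are perineurial cells, which form the sheath around peripheral nerve. Among all genes tested, 16.2% were called above 1 TPM and 13.6% below. Of 12 perineurial markers 4 were called above 1 TPM and 1 below it, Krt19 had no read, and their summed level was 467 to 770 TPM. Glial markers were called above 1 TPM in 10 of 12 genes and summed to 27859 to 33016 TPM, and fibroblast markers in 7 of 10 genes with a sum of 4921 to 6949 TPM. The other lists were lower: 3 of 10 endothelial genes (322 to 430 TPM), 4 of 10 mural genes (89.8 to 466 TPM), 1 of 12 sympathetic neuron genes (56.9 to 90.2 TPM) and 0 of 14 macrophage genes (4.11 to 172.6 TPM) were called above. Lymphocyte genes summed to 0.840 to 1.27 TPM, mast cell and neutrophil genes to 4.64 to 19.5 TPM and platelet and erythroid genes to 1.196 to 33.3 TPM. In these 3 lists, as in the macrophage list, 0 genes were called above by limma. Only Kit, of the mast cell list, had an unadjusted p under 0.05 in that direction, 1 gene of the 4 lists. Which cells of the sort made each RNA was not tested, and in a bulk sample fewer cells of a type and less RNA per cell cannot be told apart.

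Of the 33 genes, 7 were called above 1 TPM, or 22.6% of the 31 tested, beside 16.2% of all genes tested. None of the 7 makes adenosine at the surface or senses it. The listed genes that do are Nt5e and 4 adenosine receptors, too few to set 0 calls apart from 16.2%. The 7 were the channels P2rx4 and P2rx7, the receptor P2ry12, the surface enzymes Entpd1 and Entpd2, the secreted enzyme Enpp2 and the intracellular kinase Adk. The 7 genes called below 1 TPM were P2rx1, P2ry4, P2ry6, P2ry13, Adora2a, Adora3 and Entpd3. Of the remaining 19, 17 passed neither call and 2, P2ry10 and Entpd4, had no read in any library. The calls came from limma's moderated test of mean log2(TPM + 1), two-sided, with Benjamini-Hochberg adjustment over the 27396 genes with a read in at least 1 library and a threshold of 0.05.

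The 7 calls above and 7 calls below are each 22.6% of the 31 listed genes tested, beside 16.2% of all genes tested that were called above and 13.6% called below. The median difference from 1 TPM was -0.53 on the log2(TPM + 1) scale over the 31 listed genes and -0.11 over all genes tested. Of the 31 listed genes tested, 10 reached 1 TPM in every library, and 14 had a read in every library. Over all 27396 genes tested these numbers were 6713 and 10948. Without replicate 1 or without replicate 2 the test called 0 listed genes and 0 genes in all above 1 TPM, although 9 and 7 listed genes had an unadjusted p under 0.05 in that direction. Without replicate 3 it called P2rx4 and Enpp2 above 1 TPM (limma, adjusted p = 0.0358 and 0.0366). The calls below rested on 1 or 2 reads each, and limma made 0 of them at a level of 0.5 TPM or with mitochondrially encoded genes left out (2 and 12 at an unadjusted p under 0.05). Each call above was thus lost in at least 2 of the 3 cases, and where 0 genes were called in all, that loss says nothing about a single gene.

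**Figure D1:**
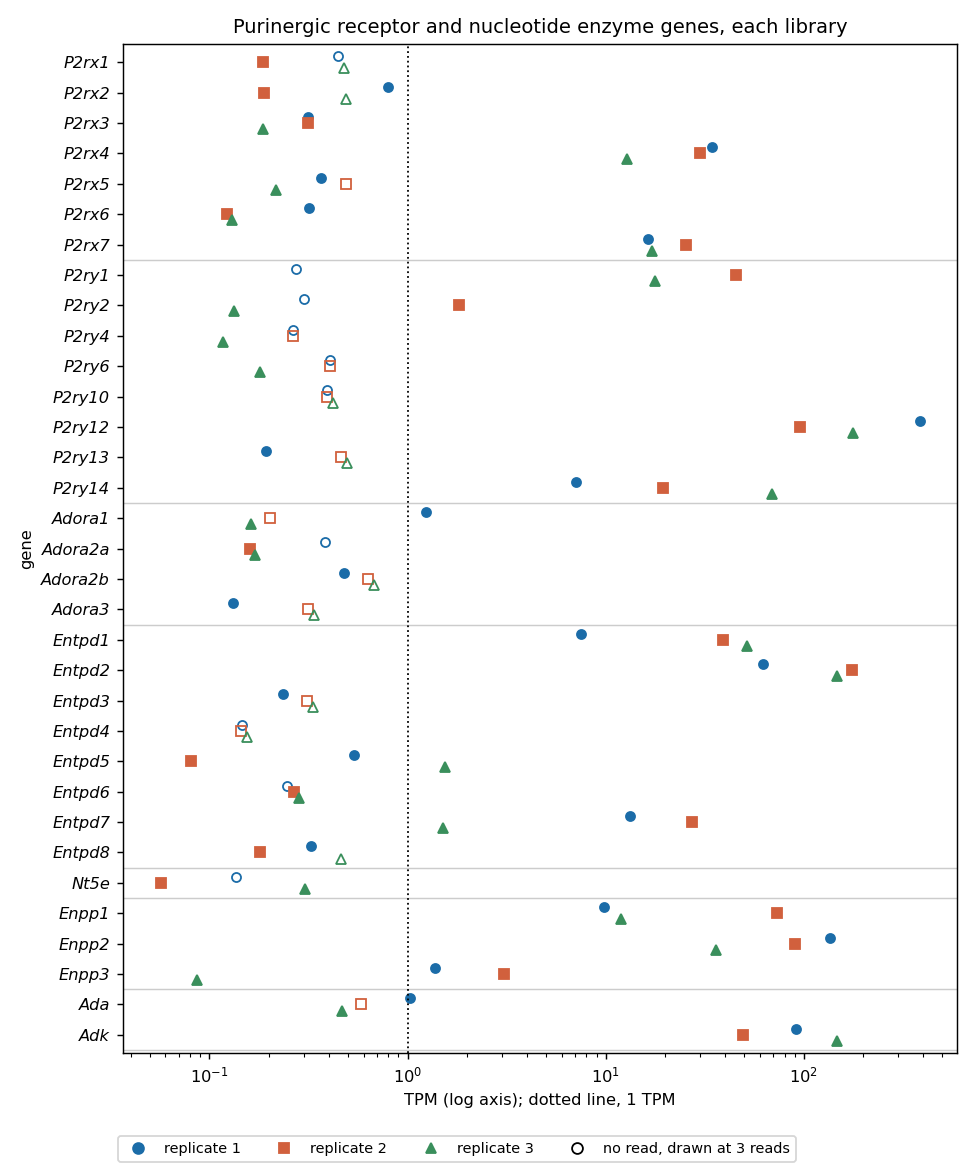
Level of each of the 33 genes in each library, in TPM on a log axis, with 1 gene a row and horizontal lines between the families. Circles, squares and triangles are replicates 1, 2 and 3, and open symbols are libraries with no read, drawn at the level of 3 reads. P2ry12, Entpd2, Enpp2 and Adk lie from 36.1 TPM up in every library, and the highest value of an adenosine receptor is 1.23 TPM.

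P2X receptors were represented almost entirely by P2rx4 and P2rx7. Together these held 97.7% ± 1.02 (SD, n = 3) of the summed TPM of the 7 P2X genes. P2rx4 (ENSMUSG00000029470.15, chromosome 5, 122707544 to 122729738 of GRCm38, forward strand) encodes an ATP-gated channel found at the surface and in lysosomes. It stood at 34.4, 29.8 and 12.9 TPM in replicates 1, 2 and 3, from 618, 535 and 216 reads. It was above 1 TPM in 3 of 3 libraries, by 3.63 ± 0.37 (SE) on the log2(TPM + 1) scale (adjusted p = 0.0172, limma). Without replicates 1, 2 and 3 in turn the difference was 3.37, 3.47 and 4.05 (limma, adjusted p = 0.0855, 0.0921 and 0.0358).

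P2rx7 (ENSMUSG00000029468.17, chromosome 5, 122643911 to 122691432, forward strand) lies 16.1 kb upstream of P2rx4. It encodes the channel that opens at high ATP and, in mouse sensory ganglia, is known from satellite glia. Its levels of 16.4, 25.5 and 17.2 TPM, from 250, 390 and 246 reads, varied the least between libraries among the 12 listed genes that averaged 1 TPM or more, with an SD of 0.33 on the log2(TPM + 1) scale. It was above 1 TPM by 3.35 ± 0.22 (SE) on that scale (limma, adjusted p = 0.00709). The difference stayed at 3.46, 3.16 and 3.43 without replicates 1, 2 and 3 (limma, adjusted p = 0.0821, 0.0663 and 0.0567).

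Which of the pair was higher differed between libraries. P2rx4 took 65.4%, 53.0% and 41.9% of the P2X total in replicates 1, 2 and 3, and P2rx7 took 31.1%, 45.5% and 56.1%. P2rx4 exceeded P2rx7 in 2 of 3 libraries, with ratios of 2.0995, 1.17 and 0.746, so the order of the pair was within the spread between replicates.

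The other P2X genes were at the edge of detection. P2rx3, the subunit of sensory neurons, had 2, 2 and 1 reads (limma, adjusted p = 0.0617), and P2rx2, a subunit of autonomic and sensory neurons, had 5, 1 and 0. P2rx5 had 2, 0 and 1 reads, and P2rx6 had 3, 1 and 1. P2rx1, the channel of smooth muscle and platelets, had 1 read, in replicate 2, and was called below 1 TPM (limma, difference -0.88 on the log2(TPM + 1) scale, adjusted p = 0.0487). Its libraries without a read allow up to 0.447 and 0.478 TPM, the level of 3 reads in replicates 1 and 3. P2rx3 was called below 1 TPM in limma's test without replicate 3 (adjusted p = 0.0408). Without replicate 1 or 2 it was not (limma, adjusted p = 0.0915 and 0.0834).

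Among the P2Y genes P2ry12 led, and it was the most abundant of all 33 genes by its mean. P2ry12 (ENSMUSG00000036353.13, chromosome 3, 59216272 to 59262871, reverse strand) encodes a receptor for ADP that couples to Gi and is best known from platelets and microglia. It stood at 384, 96.1 and 177.8 TPM in replicates 1, 2 and 3, from 2496, 626 and 1083 reads. The mean, 219 ± 148 TPM (SD, n = 3), was higher than that of 97.8% of genes with a read. It was above 1 TPM by 6.56 ± 0.48 (SE) on the log2(TPM + 1) scale (adjusted p = 0.00873, limma). Leaving out replicates 1, 2 and 3 in turn gave differences of 6.04, 7.03 and 6.59 (limma, adjusted p = 0.0821, 0.0712 and 0.0875).

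P2ry12 belongs to a cluster of receptor genes that lie on the reverse strand within Med12l, a gene of the forward strand, and P2ry13, P2ry14, Gpr171 and Med12l each stood below it in 3 of 3 libraries. P2ry13, another ADP receptor, lies 5.39 kb from P2ry12 and had 1 read in all, in replicate 1. It was called below 1 TPM (limma, difference -0.88 on the log2(TPM + 1) scale, adjusted p = 0.0487). Gpr171, on the far side of P2ry14, had 0, 33 and 3 reads. Med12l itself stood at 2.31, 5.92 and 5.34 TPM, and its exons share 9 bases with those of P2ry12.

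The promoter windows of P2ry12 and P2ry13 are printed because these adjacent receptors for ADP differed in level, with 1 read in all for P2ry13. Each window runs from 250 bases before to 50 bases from the RefSeq start on (GRCm38.p6, reverse strand, the start at base 251), at chr3:59262936-59263235 for P2ry12 and chr3:59210833-59211132 for P2ry13. By GENCODE M21 the P2ry12 gene starts at 59262871, so its window lies wholly upstream of that start. Capitals mark a match to CCAAT on either strand, and no other motif searched was found in the pair.
P2ry12: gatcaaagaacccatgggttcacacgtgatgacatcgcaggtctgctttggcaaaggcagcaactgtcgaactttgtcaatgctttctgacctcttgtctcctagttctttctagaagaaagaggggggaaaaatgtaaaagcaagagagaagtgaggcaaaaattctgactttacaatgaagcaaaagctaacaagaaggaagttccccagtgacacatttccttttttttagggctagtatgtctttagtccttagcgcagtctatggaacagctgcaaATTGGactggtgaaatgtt
P2ry13: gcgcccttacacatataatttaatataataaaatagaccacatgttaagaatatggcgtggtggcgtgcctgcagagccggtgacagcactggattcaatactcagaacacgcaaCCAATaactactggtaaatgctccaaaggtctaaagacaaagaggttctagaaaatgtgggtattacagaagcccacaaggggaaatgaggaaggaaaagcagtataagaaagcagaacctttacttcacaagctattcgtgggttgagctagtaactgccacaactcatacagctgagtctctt

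Each of the windows held 1 CCAAT match, which in P2ry12 lies on the opposite strand and reads ATTGG. Of all 32851 windows of the table, 37.4% hold such a match. The pair also had the same share of G and C, 42.3%, with 4 CG pairs in P2ry12 and 6 in P2ry13, beside medians of 52.7% and 7 over all windows.

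**Figure D2:**
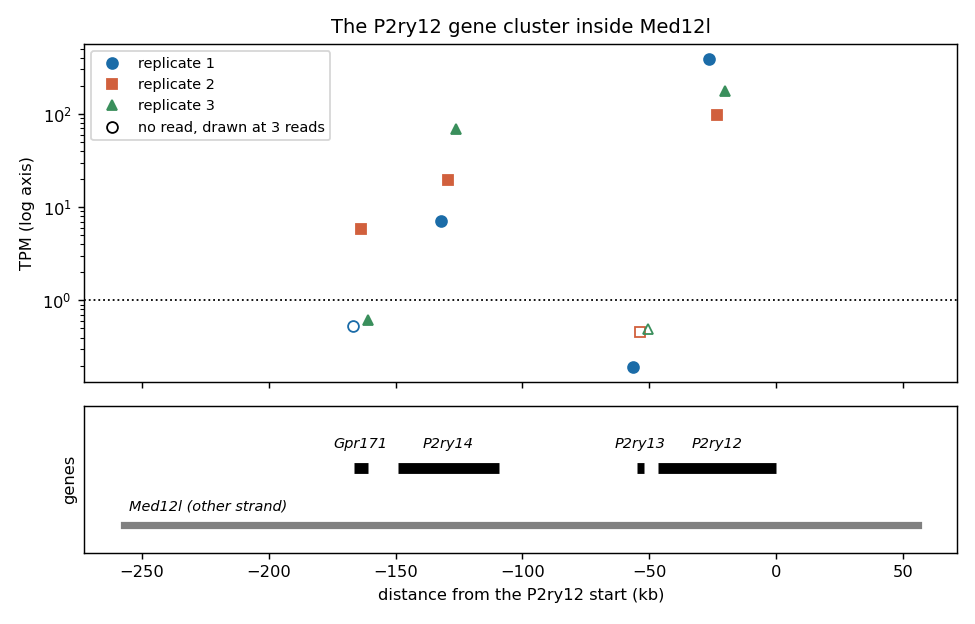
The gene cluster around P2ry12: TPM in each library on a log axis above a map of the genes plotted, with distance from the start of P2ry12 in kb. Circles, squares and triangles are replicates 1, 2 and 3, and open symbols are libraries without a read, drawn at 3 reads. P2ry12 and P2ry14 lie from 7.05 TPM up in every library, while P2ry13, which lies between them, has 1 read.

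P2ry14 (chromosome 3, 59113855 to 59153618, reverse strand), a receptor for UDP-glucose and other UDP sugars, stood at 7.05, 19.5 and 69.5 TPM. These values were all above 1 TPM, but its spread left it just outside the threshold (limma, difference 3.50 ± 0.73 SE on the log2(TPM + 1) scale, adjusted p = 0.0501). P2ry12 was 54.4, 4.93 and 2.56 times P2ry14, so the order of this pair was the same in 3 of 3 libraries. The order of the libraries differed between the genes: replicate 1 was the highest for P2ry12 and the lowest for P2ry14.

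P2ry1, a receptor for ADP that couples to Gq, was unevenly read. It had 0, 497 and 181 reads, which gave 45.3 and 17.6 TPM in replicates 2 and 3, while no read in replicate 1 allows up to 0.274 TPM. It passed neither call (limma, adjusted p = 0.265). Its exons share 992 bases with Gm37035 on the other strand, which stood at 9.50 TPM in replicate 2 and had no read in the others, and without a stated strand setting reads of such a pair cannot be told apart.

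The P2Y receptors for UTP and UDP had few reads. P2ry2, which answers to ATP and UTP, had 0, 18 and 1 reads, or 1.82 TPM in replicate 2. P2ry4, a receptor for UTP, and P2ry6, a receptor for UDP, each had 1 read, in replicate 3, and both were called below 1 TPM (limma, adjusted p = 0.0487 for each). P2ry10, which is classed with the P2Y receptors by sequence but answers to lysophosphatidylserine, had no read, which allows up to 0.394, 0.393 and 0.420 TPM. P2ry12, P2ry14 and P2ry1 thus held 99.5% ± 0.61 (SD, n = 3) of the summed P2Y level, and P2ry12 alone held 98.1%, 59.0% and 67.0%.

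P2ry12, P2rx4 and P2rx7 are also known from macrophages or microglia, so the 14 macrophage markers were set beside them. Of the 13 with a read, limma called 0 above 1 TPM, also at an unadjusted p under 0.05, and 1 (7.69%) below. The shares of all genes tested were 16.2% and 13.6%, and 13 genes are too few to set 0 apart from 16.2%. Aif1 had no read. Csf1r, the receptor that macrophages depend on, had 3, 5 and 7 reads, Cx3cr1 had 4, 2 and 0, and Adgre1 had 1, 0 and 1. Ptprc, the pan-leukocyte surface protein CD45, had 3, 89 and 488 reads, which gave 11.1 TPM in replicate 3, and Lyz2, lysozyme, had 1, 7 and 43 reads, which gave 13.7 TPM there. The list summed to 4.11, 172.6 and 104.4 TPM in replicates 1, 2 and 3, while P2ry12 stood at 384, 96.1 and 177.8 TPM. In replicates 2 and 3 most of the list's sum came from Tyrobp, with 0, 33 and 120 reads, Fcer1g, with 1, 194 and 0, and Cd68, with 0, 196 and 0. The part of macrophage RNA in the levels of these receptors was not tested.

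**Figure D3:**
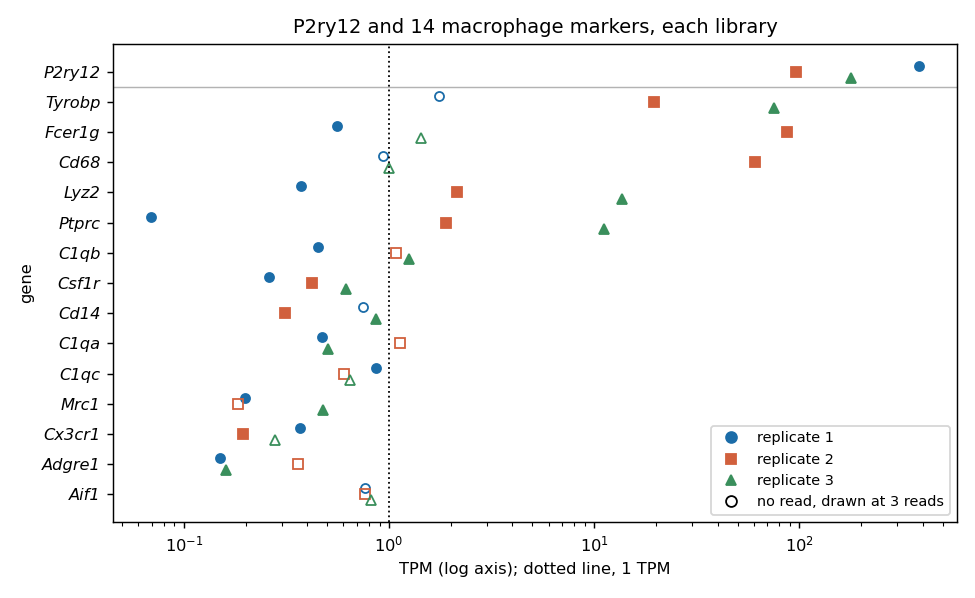
P2ry12 and the 14 macrophage markers in each library, in TPM on a log axis. Circles, squares and triangles are replicates 1, 2 and 3, and open symbols are libraries without a read, drawn at 3 reads. P2ry12 lies at 96.1 to 384 TPM, and every marker lies below 1 TPM in replicate 1, apart from open symbols that stand for no read.

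Adenosine receptors were nearly absent from the reads. The 4 genes together had 21, 1 and 3 reads and summed to 1.88, 0.256 and 0.418 TPM. Of the 21 reads of replicate 1, 18 were on Adora1, the receptor that couples to Gi and is known for braking transmitter release, which had 0 and 2 reads in replicates 2 and 3. Adora1 shares 1162 exon bases with Mybph on the other strand, which stood at 25.2 TPM in replicate 2.

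Adora2a, which couples to Gs, had 0, 1 and 1 reads, and Adora3 had 1, 0 and 0. Both were called below 1 TPM (limma, adjusted p = 0.0487 for each). Adora2b, the receptor of low affinity, had 2, 0 and 0 reads (limma, adjusted p = 0.0699). Adora3 shares 20.9% of its exon bases with Tmigd3 on the same strand, which had no read.

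Entpd2 was the main surface enzyme that cuts nucleoside triphosphates. Entpd2 (ENSMUSG00000015085.8, chromosome 2, 25395874 to 25401321, forward strand) encodes an enzyme that prefers ATP over ADP and so leaves ADP, and it is known from peripheral glia. It stood at 62.6, 175.2 and 146.9 TPM in replicates 1, 2 and 3, from 340, 954 and 748 reads. It was above 1 TPM by 5.89 ± 0.39 (SE) on the log2(TPM + 1) scale (adjusted p = 0.00735, limma). The difference was 6.33, 5.60 and 5.73 without replicates 1, 2 and 3 (limma, adjusted p = 0.0686, 0.0712 and 0.0764). Entpd2 shares 612 exon bases, 28.8% of its own, with Npdc1 on the same strand, which had 0, 296 and 792 reads. The sources used here do not say how reads on shared bases were counted. Entpd2 had 340 reads in the library where Npdc1 had none.

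Entpd1 (ENSMUSG00000048120.16, chromosome 19, 40612366 to 40741602, forward strand) encodes CD39, which takes both ATP and ADP to AMP and is best known from vessels and immune cells. It stood at 7.52, 39.1 and 51.5 TPM and was above 1 TPM by 3.71 ± 0.67 (SE) on the log2(TPM + 1) scale (adjusted p = 0.0487, limma). It had the highest adjusted p of the 7 calls above, and its difference was 4.52, 3.40 and 3.21 without replicates 1, 2 and 3 (limma, adjusted p = 0.0744, 0.183 and 0.198). Entpd2 was 8.32, 4.48 and 2.85 times Entpd1, and it was the higher of the pair in 3 of 3 libraries.

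The endothelial list was set beside Entpd1. Its 10 genes all had a read in every library, and their sum was 323, 430 and 322 TPM. Of these genes 3 (30%) were called above 1 TPM and 0 below, beside 16.2% and 13.6% of all genes tested. Of the 10 genes, 6 were lowest in replicate 1, where Entpd1 was lowest too: Cdh5, Kdr, Esam, Flt1, Egfl7 and Pecam1. The first 3 of these also had the same order of libraries as Entpd1, with Cdh5, the cadherin of endothelial junctions, at 1.23, 31.6 and 38.4 TPM. Of the others, 1 gene, Emcn, was lowest in replicate 2, and 3 genes, Tek, Tie1 and Cldn5, were lowest in replicate 3. In the macrophage list Ptprc, Tyrobp, Lyz2, Csf1r and Cd14 had the library order of Entpd1 too. The other genes of that list did not. Ptprc stood at 0.0695, 1.90 and 11.1 TPM in replicates 1, 2 and 3, while Csf1r and Cd14 stayed below 1 TPM. The parts of endothelial and macrophage RNA in the Entpd1 level were not tested.

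Entpd3 and Entpd8, the other Entpd enzymes of the cell surface, had 2, 0 and 0 reads and 2, 1 and 0 reads. Entpd3 was called below 1 TPM (limma, adjusted p = 0.0487). Of the surface total of these 4 genes, Entpd2 therefore held 88.6%, 81.7% and 74.0%, and Entpd1 held 10.6%, 18.2% and 25.9%.

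Of the Entpd enzymes inside the cell or secreted, Entpd7, an intracellular enzyme, stood at 13.2, 27.3 and 1.503 TPM and passed neither call (limma, adjusted p = 0.121). It shares 444 exon bases with Cox15 on the other strand, which stood at 19.7 TPM in replicate 2 and had 0 and 2 reads in replicates 1 and 3. Entpd5, a UDPase of the endoplasmic reticulum, had 8, 1 and 22 reads, and Entpd6, a Golgi and secreted enzyme, had 0, 3 and 3. Entpd4, an enzyme of the Golgi, had no read, and neither had Entpd4b, which holds 100% of the 8206 words of 50 bases found in Entpd4 transcripts. Reads of such copies can be split or dropped in counting, so the level of Entpd4 is uncertain.

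RNA of the genes for the step from AMP to adenosine at the surface was low. Nt5e (ENSMUSG00000032420.8, chromosome 9, 88327197 to 88372092, forward strand) encodes CD73, the main surface enzyme that makes adenosine. It had 0, 1 and 6 reads, up to 0.304 TPM, and lay just outside the call below 1 TPM (limma, difference -0.84 on the log2(TPM + 1) scale, adjusted p = 0.0514). In limma's test without replicate 3, the library with 6 of its reads, it was called below (adjusted p = 0.0365). Without replicate 1 or 2 it was not (limma, adjusted p = 0.110 and 0.119). The other surface enzymes able to make adenosine, Alpl and Acpp, had 52, 38 and 0 reads and 0, 1 and 4 reads. Alpl thus stood at 5.07 and 3.71 TPM in replicates 1 and 2.

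The promoter windows of Entpd2, which was called above 1 TPM, and of Nt5e, which reached at most 0.304 TPM, are printed side by side. They cover chr2:25395624-25395923 and chr9:88327359-88327658 (GRCm38.p6, RefSeq starts at base 251, both forward strand). By GENCODE M21 the Nt5e gene starts at 88327197, so its window lies wholly inside the gene, while the RefSeq and M21 starts of Entpd2 are the same. Capitals mark matches to GGGCGG, the core of a GC box, read on either strand as GGGCGG or CCGCCC. In Nt5e the matches come in pairs that overlap.
Entpd2: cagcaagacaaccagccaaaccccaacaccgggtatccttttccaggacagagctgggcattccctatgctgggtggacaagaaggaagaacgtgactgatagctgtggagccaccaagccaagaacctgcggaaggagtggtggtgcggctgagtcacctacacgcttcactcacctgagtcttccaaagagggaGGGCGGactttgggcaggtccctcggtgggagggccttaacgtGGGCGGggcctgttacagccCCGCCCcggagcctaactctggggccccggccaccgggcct
Nt5e: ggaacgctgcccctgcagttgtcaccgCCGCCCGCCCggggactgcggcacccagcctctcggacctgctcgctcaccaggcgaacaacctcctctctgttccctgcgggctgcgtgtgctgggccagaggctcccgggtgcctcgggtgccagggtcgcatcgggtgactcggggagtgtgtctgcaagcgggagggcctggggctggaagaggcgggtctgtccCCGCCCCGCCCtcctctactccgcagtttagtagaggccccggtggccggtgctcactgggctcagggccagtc

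Entpd2 held 3 matches and Nt5e 4, and 35.7% of all windows hold at least 1. The Nt5e window had 23 CG pairs and 71% G and C, the Entpd2 window 13 and 62%. RefSeq windows were matched for 26 of the 33 genes, with 36 windows in all, of which 44.4% held GGGCGG, 38.9% CCAAT, 8.33% TATAAA and 8.33% AACAAAG, the core bound by SOX factors. The shares over all windows were 35.7%, 37.4%, 13.6% and 5.85%.

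The Enpp family cuts phosphodiester bonds, and Enpp2 was its highest listed member. Enpp2 (ENSMUSG00000022425.15, chromosome 15, 54838901 to 54952892, reverse strand) encodes autotaxin, a secreted enzyme that makes lysophosphatidic acid from lysophosphatidylcholine and acts little on nucleotides. It stood at 136.3, 90.5 and 36.1 TPM in replicates 1, 2 and 3. It was above 1 TPM by 5.28 ± 0.47 (SE) on the log2(TPM + 1) scale (adjusted p = 0.0128, limma), and by 4.86, 5.16 and 5.81 without replicates 1, 2 and 3 (adjusted p = 0.0821, 0.0866 and 0.0366, limma). At least 1209, 804 and 300 reads lay on it, the smallest numbers that give whole reads in all libraries.

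Enpp1 (chromosome 10, 24637914 to 24712159, reverse strand), which cuts ATP to AMP and pyrophosphate, stood at 9.78, 73.6 and 11.9 TPM. It was above 1 TPM in 3 of 3 libraries and just outside the threshold (limma, difference 3.45 ± 0.72 SE on the log2(TPM + 1) scale, adjusted p = 0.0501). Its neighbour Enpp3, a surface enzyme of the same kind 60.2 kb away, had 21, 47 and 1 reads. Replicate 2 was the highest library for both. Enpp2 exceeded Enpp1 in 3 of 3 libraries, with ratios of 13.9, 1.23 and 3.03.

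Of the enzymes that remove adenosine, Adk was high and Ada was not. Adk (ENSMUSG00000039197.10, chromosome 14, 21052574 to 21448569, forward strand) encodes adenosine kinase, which turns adenosine back into AMP inside the cell. It stood at 91.6, 49.2 and 147.4 TPM from 1995, 1073 and 3008 reads, and was above 1 TPM by 5.47 ± 0.39 (SE) on the log2(TPM + 1) scale (adjusted p = 0.00835, limma). With replicates 1, 2 and 3 left out in turn the difference was 5.43, 5.87 and 5.09 (limma, adjusted p = 0.0821, 0.0712 and 0.0556). Ada, adenosine deaminase, had 5, 0 and 2 reads and passed neither call (limma, adjusted p = 0.270). Adk held 99.5% ± 0.53 (SD, n = 3) of the sum of the pair.

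Summed by step, the levels ran from high to low without a clear break. The surface enzymes that cut ATP and ADP summed to 70.7, 214.5 and 198.5 TPM, and Enpp1 with Enpp3 to 11.2, 76.6 and 11.99 TPM. The 3 genes that make adenosine from AMP summed to 5.10, 3.83 and 0.572 TPM. In each library this sum lay below those of the ATP-cutting steps and below Adk. Nucleoside carriers of the surface summed to 17.9, 44.3 and 1.37 TPM, which lay above the sum of the adenosine receptors in 3 of 3 libraries.

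**Figure D4:**
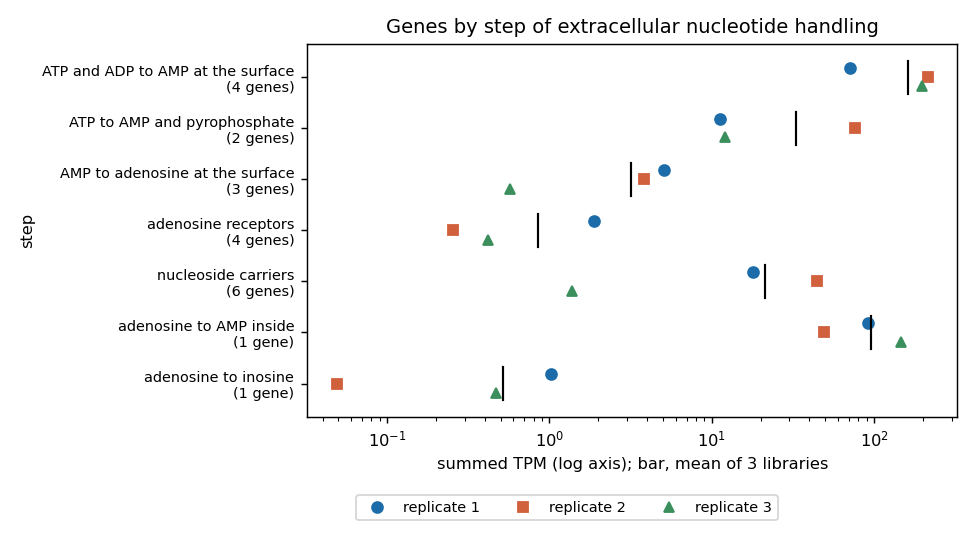
Summed TPM of the genes of each step, from ATP at the top to adenosine removal at the bottom, on a log axis, with a bar at the mean of 3 libraries. Circles, squares and triangles are replicates 1, 2 and 3, and the replicate 2 point of the last row has no read and stands at its deposited value. The adenosine-making and adenosine-sensing rows reach 5.10 TPM at most, while the first row and the adenosine kinase row lie from 49.2 TPM up. The rows of Enpp1 with Enpp3 and of the nucleoside carriers span 1.37 to 76.6 TPM and overlap both.

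In the order of the 33 means, Entpd2 (128 ± 58.6 TPM), Adk (96.1 ± 49.3 TPM) and Enpp2 (87.6 ± 50.1 TPM) followed P2ry12 (SD, n = 3 each). Entpd1, P2ry14, Enpp1, P2rx4, P2ry1, P2rx7 and Entpd7 came next, between 32.7 and 14.03 TPM. The ranges of neighbours in this order overlapped down to P2ry10, so no adjacent pair with reads was separated beyond its spread. The highest library was replicate 1 for 3, replicate 2 for 6 and replicate 3 for 3 of the 12 genes that averaged 1 TPM or more.

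The SD between libraries of the listed genes averaging 5 TPM or more was mostly below the median of genes at that level. The 11 such listed genes had a median SD of 1.00 on the log2(TPM + 1) scale, beside 1.72 for all 10128 genes of that level. Within the 11, the SD ran from 0.33 for P2rx7 to 2.87 for P2ry1. This is a description of 11 genes and was not tested.

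**Figure D5:**
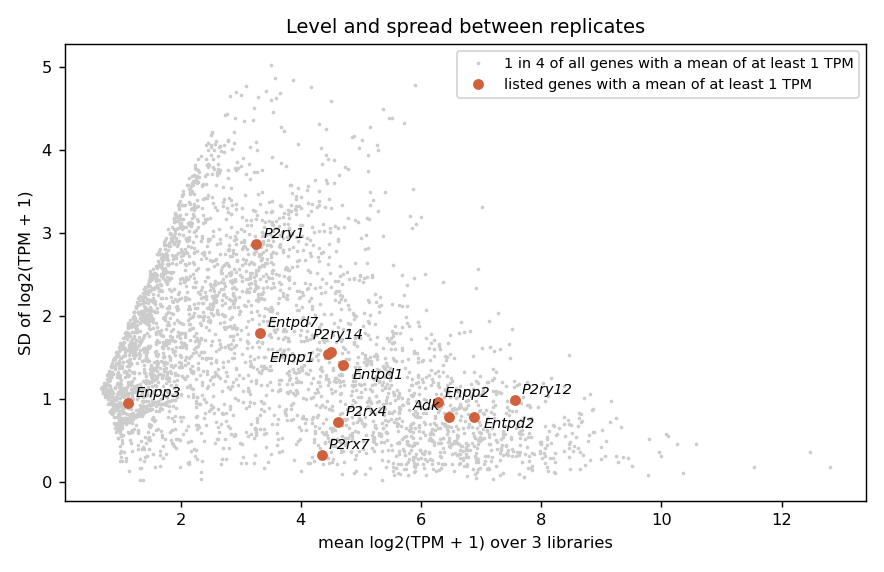
SD between the 3 libraries against the mean, both of log2(TPM + 1), for the 12 listed genes that averaged 1 TPM or more (large points, named) and for 1 in 4 of all such genes (small points). P2rx7 has the smallest SD of the named genes, 0.33, and P2ry1 the largest, 2.87.

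Beyond the 33 genes, other genes of the same routes were counted in lists. Over all genes tested, 16.2% were called above 1 TPM and 13.6% below. Of 14 genes for ATP release found in the deposited data, 13 had a read and were tested, and 5 of these (38.5%) were called above and 1 (7.69%) below. The 5 were Lrrc8b, Lrrc8c, Lrrc8a and Lrrc8d, subunits of the volume-regulated anion channel, and Gja1, a connexin that forms gap junctions and hemichannels. Their means were 149 ± 80.2, 105 ± 76.4, 71.8 ± 38.9, 16.4 ± 7.26 and 37.2 ± 21.7 TPM (SD, n = 3 each). Panx1, a pannexin channel that releases ATP, had 6, 0 and 3 reads, and Slc17a9, which loads ATP into vesicles, had 1, 1 and 4.

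Of 7 nucleoside transporters, 0 were called above 1 TPM by limma, also at an unadjusted p under 0.05, and 1 (14.3%) below. Slc29a1, an equilibrative carrier of adenosine, stood at 17.4 and 27.9 TPM in replicates 1 and 2 and had no read in replicate 3. Among 37 other enzymes of nucleotide and adenosine turnover 35 were tested, of which 11 (31.4%) were called above and 1 (2.86%) below. The highest of these were Art3, a protein of the ADP-ribosyltransferase family, at 641 ± 51.8 TPM, Hprt, which salvages purine bases, at 216 ± 157 TPM, and Ampd3, which deaminates AMP inside the cell, at 109 ± 51.5 TPM (SD, n = 3 each). Ahcyl1 and Enpp5 followed at 106 ± 19.03 and 53.6 ± 44.4 TPM.

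Of 22 G proteins and effectors of these receptors 21 were tested, of which 9 (42.9%) were called above 1 TPM and 2 (9.52%) below, beside 16.2% and 13.6% of all genes tested. Gnai3 and Gnai1, subunits of Gi, the class to which receptors such as P2ry12 couple, stood at 231 ± 142 and 218 ± 50.6 TPM. Gnai2, also of Gi, was called above too, at 34.7 ± 20.2 TPM. Gnaq, Plcb4 and Gna13 stood at 146 ± 66.5, 67.9 ± 44.3 and 57.0 ± 52.6 TPM (SD, n = 3 each).

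Of 14 receptors and phosphatases related to P2Y genes or to the product of Enpp2 13 were tested, of which 5 (38.5%) were called above 1 TPM and 3 (23.1%) below, beside the same shares of all genes. These 5 were Lpar1, Lpar4 and Lpar6, receptors for lysophosphatidic acid, and Plpp3 and Plpp1, phosphatases that break it down. Their means were 669 ± 252, 98.4 ± 99.5, 66.6 ± 32.9, 424 ± 175 and 154 ± 68.1 TPM (SD, n = 3 each). Lpar1 was thus above Enpp2, at 87.6 TPM, by mean level per length.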

How the data were processed

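The authors deposited log2 TPM per gene for 3 libraries. The tools STAR and featureCounts and the build mm10 (GRCm38) are named in the submitters' processing notes; on tool versions, annotation, strand setting and the step to TPM the sources used here say nothing. Smart-Seq2 libraries were made from the sorted live fluorescent cells, per the labels' protocols. This PCR method has no molecular identifiers, so floors cover counting error only.

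The values held 0.25 read added to each gene. With exon lengths of GENCODE M21, whole reads came out for 49791 of 52550 genes (tolerance 0.02 read). For the other 2759, Enpp2 among them, the smallest length giving whole reads in all libraries was used (3473 bases for Enpp2; tolerance 0.002 read), so their reads are lower limits. Coordinates are those of M21. A library without a read is given as such, with the level of 3 reads as its upper limit. Means, SDs, sums and tests use the deposited values, which hold the added 0.25 read.

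limma 3.58.1 (R 4.3.3) compared each gene's mean log2(TPM + 1) with that of a level of 1 TPM by its moderated test (prior degrees of freedom 1.197). Benjamini-Hochberg adjustment ran over the 27396 genes with a read. This scale understates differences of low genes, and many low genes share the adjusted p of 0.0487. Python 3.11.15, numpy 2.4.6, pandas 2.3.3 and matplotlib 3.10.9 served for the rest. The listed genes and the marker and pathway lists were chosen with earlier results of these data known. Named beside the 33 genes were, from each pathway list, the 5 highest means among genes called above 1 TPM, and genes that overlap or copy a listed gene; the remaining genes named were chosen after their values were seen. The labels give no batch, and pooling of animals is not stated. 1 further gene is not reported here.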

Additional observations from a re-analysis of the deposited data

How the results depend on the processing

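The counts of calls depended on the spread model, on the level tested and on single libraries. Listed genes above 1 TPM numbered 7, and 9, 7, 7, 9 and 7 with a pseudocount of 0.5 TPM, no filter on low values, a level of 0.5 TPM, a mean-variance trend and TPM without mitochondrially encoded genes. Without single replicates they numbered 0 to 2, and all genes above 1 TPM 0 to 2435 against 4428, with 4453 to 4646 at an unadjusted p under 0.05 in limma's test. Both genes added by the pseudocount and by the trend were P2ry14 and Enpp1. Calls below 1 TPM were less stable. Listed genes below numbered 7, but 16 without the filter, 15 with the trend, 0 at the level of 0.5 TPM and 0 without mitochondrially encoded genes (limma; 2 and 12 at an unadjusted p under 0.05), and 0 to 4 without single replicates. All genes below numbered 3719, but 29850 without the filter, 9648 with the trend, 0 at the level of 0.5 TPM and 0 without mitochondrially encoded genes (817 and 6225 at an unadjusted p under 0.05), and 0 to 4889 without single replicates. Leaving out mitochondrially encoded genes raised the difference of the median gene by 0.12 (log2). Genes without a read enter when the filter is dropped; otherwise the cause was not tested. The direction turned for Entpd5 at the level of 0.5 TPM (0.11) and for Enpp3 without replicate 2 (-0.31 to 0.64 over the 3 cases), neither of which was called. The mean share of P2rx4 in the P2X total was 47.4% to 59.2% without single replicates. No paired analysis was possible because there was 1 group. Depth limits the low genes: on a gene of 1 kb, 1 read is worth 0.391 to 0.418 TPM, so levels near or below 1 TPM rest on few reads.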
